A study of Mus musculus with 9 samples.

Results

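The accessible regions described here are those assigned to the Zfp genes of the mouse, the genes whose symbol is Zfp followed by digits only. They were taken by that name alone from the list of open chromatin regions of wild-type embryos, in which 390 of 17164 distinct regions carried such a symbol, for 291 of the 11541 genes named. Names with other letters, such as Zfp36l1 or Zfpm2, were outside the rule. The study profiled chromatin opening by ATAC-Seq, a method that tags accessible DNA with a transposase, in pharyngeal mesoderm and hearts of embryos at day E8.75, the stage of 6 somites. It held 9 libraries in 3 groups of 3, with the genotypes wt (the control group), Isl1-/- and Isl1Cre+/-/ Brg1fl/fl, where Cre made from the Isl1 locus deletes the floxed remodeler gene Brg1 in cells that express Isl1. Only the list of the wt group was analysed here. The methods speak of 3 wild-type embryos, and the list joins their libraries into 1 set of positions, with no height and no value per library. The depth is therefore unknown, there is no replicate error, and no test was made. Shares are given with Wilson 95% intervals, which cover counting error only.

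Most Zfp symbols stand for C2H2 zinc-finger proteins, in which repeated finger modules held by zinc contact DNA. Many of these carry a KRAB box near the amino terminus, which recruits Trim28 (KAP1) and through it the histone methyltransferase Setdb1, and they are best known for silencing retroelements and for keeping imprints. KRAB zinc-finger genes arose by tandem duplication and stand in clusters of related copies. Other Zfp genes encode single factors of development, and some of the names belong to RNA-binding proteins of another finger type, such as Zfp36. All 3 genes listed as partners of KRAB proteins (Trim28, Setdb1 and Cbx5) had a region within 1 kb of the start, 2674, 828 and 846 bp wide respectively. Of 8 marker genes of heart and pharyngeal mesoderm 6 had at least 1 region, with 9 at Isl1, whereas Tbx1 and Nkx2-5 had none, and 49.3% of all coding genes had a region.

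The sequences that recur in the Zfp promoters are shown first. Each of the following windows is the 120 bases just upstream of the main annotated start of a Zfp gene, lies in an accessible region assigned to that gene and holds no annotated exon. Capitals mark ACTACA followed after 1 base by TTCCC, read on either strand, so that on the opposite strand it appears as GGGAA, 1 base, TGTAGT. The first 5 genes stand in the largest Zfp cluster, on chromosome 13, the next 4 in a pair of clusters on chromosome 7, and Zfp1 is outside any cluster. The regions that hold these windows were from 618 bp wide at Zfp93 to 1781 bp at Zfp712. Sequences are from mm9 (NCBIM37).
Zfp457 (chr13:67407349-67407468, minus strand): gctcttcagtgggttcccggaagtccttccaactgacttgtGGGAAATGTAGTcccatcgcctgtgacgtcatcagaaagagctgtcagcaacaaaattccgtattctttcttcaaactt
Zfp595 (chr13:67433497-67433616, minus strand): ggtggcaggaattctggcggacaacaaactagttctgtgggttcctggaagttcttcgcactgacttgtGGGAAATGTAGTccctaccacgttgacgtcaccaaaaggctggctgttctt
Zfp759 (chr13:67229042-67229161, plus strand): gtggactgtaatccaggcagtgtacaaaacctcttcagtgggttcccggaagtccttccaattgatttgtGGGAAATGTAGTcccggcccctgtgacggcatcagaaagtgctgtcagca
Zfp273 (chr13:67914633-67914752, plus strand): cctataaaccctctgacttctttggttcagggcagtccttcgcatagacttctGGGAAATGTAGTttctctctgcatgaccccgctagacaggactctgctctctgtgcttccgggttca
Zfp712 (chr13:67162107-67162226, minus strand): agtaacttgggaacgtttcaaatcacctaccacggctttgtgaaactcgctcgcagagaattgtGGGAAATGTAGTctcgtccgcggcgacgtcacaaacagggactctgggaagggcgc
Zfp84 (chr7:30553451-30553570, plus strand): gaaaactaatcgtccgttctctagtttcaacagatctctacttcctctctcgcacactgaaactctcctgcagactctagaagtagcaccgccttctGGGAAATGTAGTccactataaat
Zfp790 (chr7:30600971-30601090, plus strand): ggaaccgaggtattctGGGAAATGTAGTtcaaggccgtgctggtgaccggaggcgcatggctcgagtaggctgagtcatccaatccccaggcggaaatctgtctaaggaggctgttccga
Zfp235 (chr7:24919073-24919192, plus strand): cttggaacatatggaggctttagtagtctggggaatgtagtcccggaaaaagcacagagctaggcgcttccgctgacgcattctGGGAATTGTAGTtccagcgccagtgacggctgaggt
Zfp93 (chr7:25055319-25055438, plus strand): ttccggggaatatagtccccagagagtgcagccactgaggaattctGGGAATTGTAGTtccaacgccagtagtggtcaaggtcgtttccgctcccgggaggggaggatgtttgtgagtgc
Zfp1 (chr8:114167223-114167342, plus strand): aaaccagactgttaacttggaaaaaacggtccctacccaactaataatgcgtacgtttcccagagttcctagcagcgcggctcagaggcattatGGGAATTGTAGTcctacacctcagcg

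For comparison, the 200 bases upstream of Zfp281, a factor known from embryonic stem cells, are given with each CpG in capitals. They hold 14 CpG, whereas the 120 bases of Zfp457 hold 4 and those of Zfp759 hold 3.
Zfp281 (chr1:138521278-138521477, plus strand): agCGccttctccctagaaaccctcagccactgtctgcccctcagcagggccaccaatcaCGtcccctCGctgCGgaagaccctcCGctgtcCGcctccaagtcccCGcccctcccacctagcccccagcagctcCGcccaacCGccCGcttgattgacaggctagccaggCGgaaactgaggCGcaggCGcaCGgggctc

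Another kind of promoter is shared letter for letter by several loci. The 120 bases upstream of an annotated start that the list gives to Zfp967, and that the annotation of the build calls Gm8898, occur 9 times in the genome, all on chromosome 2 and each inside an accessible region of the list. The list assigned 2 of the 9 copies to Zfp967, 2 to Zfp973, 1 to Zfp966 and 1 to Zfp965, and gave the remaining copies to genes with names of another kind.
Gm8898 (chr2:175930233-175930352, minus strand): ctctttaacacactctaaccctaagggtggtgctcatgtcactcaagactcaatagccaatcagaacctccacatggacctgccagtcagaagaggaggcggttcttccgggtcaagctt

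Zfp genes were more often represented in the list than coding genes in general. Of 365 coding Zfp genes of the RefSeq table, 289 had an assigned region, 79.2% (interval 74.7 to 83.0%), while 49.3% of all 21031 coding genes did. Counting only regions within 1 kb of the assigned start, the share was 71.2% (260 of 365, interval 66.4 to 75.6%), beside 40.6% of all coding genes. Of the 291 Zfp genes in the list 222 had 1 region, 50 had 2, 13 had 3 and 6 had more. The share with 3 or more regions was 6.53% (interval 4.22 to 9.97%), and it was 10.7% among the 11250 other genes of the list.

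The regions of Zfp genes lay close to gene starts. By the deposited distance 265 of 390 were within 1 kb of the assigned start, 67.9% (interval 63.2 to 72.4%), beside 52.9% in the whole list. Only 20 were between 1 and 10 kb away, 82 between 10 and 100 kb, and 23 were farther than 100 kb, 5.90% (interval 3.96 to 8.69%), compared with 15.1% of the regions of other genes. Introns held the midpoints of 22 regions (5.64%, interval 3.75 to 8.39%), compared with 15.8% for other genes, and intergenic space held 105, or 26.9% beside 26.7%. In 11 of the 265 promoter regions (4.15%, interval 2.33 to 7.28%) a coding gene of the opposite strand also started, as it did in 10.1% of the promoter regions of other genes. Such pairs included Zfp142 with Bcs1l, Zfp189 with Mrpl50 and Zfp473 with Vrk3, and 3 were pairs of Zfp genes (Zfp942 with Zfp943, Zfp944 with Zfp758 and Zfp668 with Zfp646). A pair could be counted only where the annotation had a start of the assigned gene, by name, in the region. Midpoints lay within 1 kb of any annotated start in 88.3% of Zfp promoter regions and 98.2% of others, so pairs can be missed more often for Zfp genes.

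A word of 31 bases (31-mer) was taken as repeated where the genome held it at least once more on either strand, and by this measure 23 of the 265 promoter regions (8.68%, interval 5.85 to 12.7%) were over 50% repeated, beside 1.05% for other genes.

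**Figure D1:**
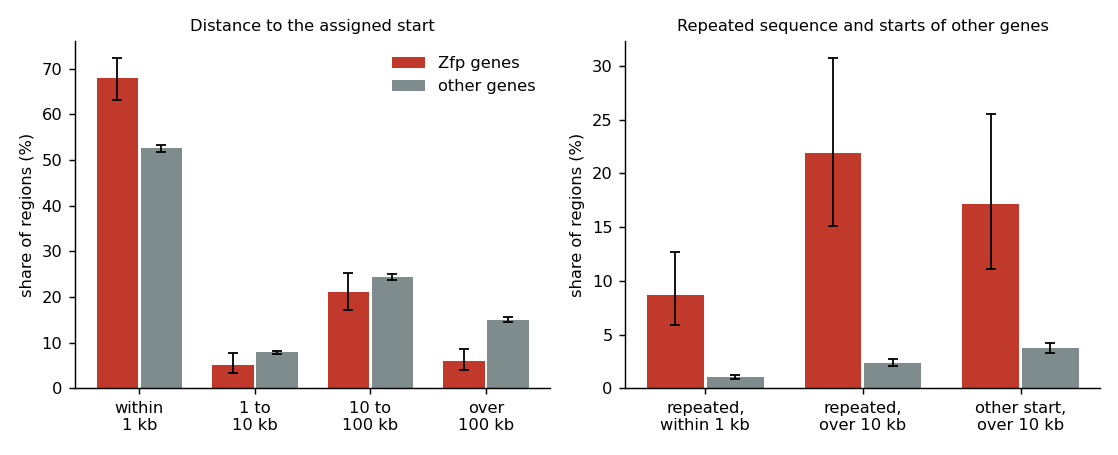
Left, share of regions (%) by distance to the assigned start for the 390 regions of Zfp genes and the 16774 regions of other genes; right, share with over 50% of their 31-mers repeated in the genome, within 1 kb and beyond 10 kb, and share of regions beyond 10 kb that hold an annotated start of another gene. Bars are shares and error bars Wilson 95% intervals; Zfp regions stand higher within 1 kb (67.9% against 52.6%) and beyond 10 kb are more often repeated (21.9% against 2.38%).

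Promoter regions of Zfp genes held fewer CpG than the pooled regions of other genes. Within 1 kb of the start the median was 4.18 CpG per 100 bp of region (quartiles 2.73 and 5.64), compared with 5.98 (quartiles 4.55 and 7.51), and the median GC content was 53.5% beside 58.2%. Their median width was 1240 bp (quartiles 1051 and 1432), and that of other promoter regions 1295 bp (quartiles 1084 and 1618). Beyond 10 kb the order was the reverse, with a median width of 1073 bp in Zfp regions and 935 bp in others, and a median of 2.41 CpG per 100 bp beside 1.23. Among all 390, widths ran from 475 to 2549 bp, and the quartiles of the near and distant classes overlapped.

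**Figure D2:**
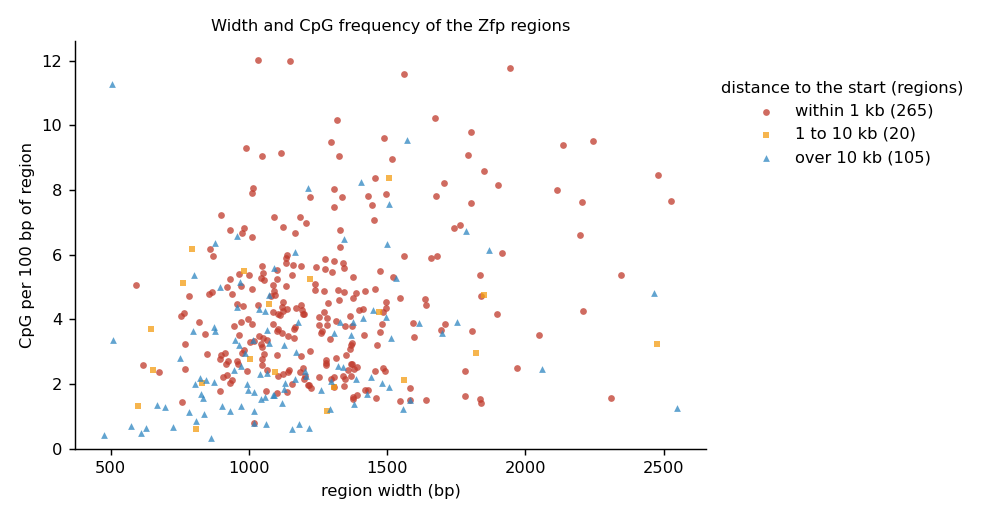
Each point is 1 of the 390 Zfp regions, placed by its width (bp) and its CpG per 100 bp of region, and coloured by the distance to the assigned start. The 265 regions within 1 kb have a median of 4.18 CpG per 100 bp and the 105 regions beyond 10 kb a median of 2.41, and both classes span most of the width range.

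The 5 widest regions were of several kinds. The widest, 2549 bp at chr4:146790268-146792816, was assigned to Zfp985 although it lay 135844 bp upstream of it, in an intron of the annotation. Zfp367 had 2528 bp at chr13:64253314-64255841 over its own start, and Zfp91, known as a ubiquitin ligase, 2478 bp at chr19:12869062-12871539, also over its start. A region of 2477 bp at chr11:58114393-58116869 lay 4940 bp upstream of Zfp692. The last, 2466 bp at chr8:4676844-4679309, was given to Zfp958 at 64906 bp but had its midpoint 289 bp from the start of Gm7461.

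Among genes of the annotation of the same build, 231 of 340 coding Zfp genes had an open promoter, taken as any region of the list that overlaps 1 kb either side of an annotated start of the gene. This was 67.9% (interval 62.8 to 72.7%), beside 45.2% of all 22225 coding genes. CpG and motifs are counted below at the main start, which need not be the start with the region. The definition takes no account of which gene a region was assigned to. It misses starts that the annotation does not have: 31 of the 265 regions placed within 1 kb of a Zfp start by the deposited distance were more than 1 kb from any annotated start, and 26 of the Zfp symbols of the list are not in that annotation. When a region within 1 kb by the deposited distance also counted, 260 of 340 Zfp genes were open (76.5%, interval 71.7 to 80.7%) and 45.2% of the 21885 other coding genes. The 269 genes under other names with at least 3 matches of a C2H2 finger pattern were open in 158 cases, 58.7% (interval 52.8 to 64.5%). The pattern does not find all fingers, and lack of a match does not show lack of a finger. Each of the 17 Klf genes had 1 match and is outside this group, with a median of 10.2 CpG per 100 bp in open promoters. Low CpG was shared with the 269 genes so matched. Within 500 bp of the main start, open promoters had a median of 5.09 CpG per 100 bp in Zfp genes (quartiles 3.10 and 6.99), 4.50 in C2H2 genes under other names (quartiles 2.50 and 7.37) and 6.39 in all coding genes other than Zfp. Among named families, 27 of 37 Zbtb genes, 13 of 17 Klf genes, 5 of 9 Zkscan genes and 6 of 15 Zscan genes had an open promoter, and the intervals of all these families overlap that of the Zfp genes.

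Genes with a KRAB box had few CpG around the main start, and most had a region at an annotated start. A residue pattern of the box was found in 143 of the 340 translated Zfp genes, and 104 of them had an open promoter (72.7%, interval 64.9 to 79.4%), beside 127 of 197 without the pattern (64.5%, interval 57.6 to 70.8%). These intervals overlap. The median CpG frequency within 500 bp of the main start was 3.00 per 100 bp in genes with the pattern (quartiles 1.70 and 4.65) and 5.39 in those without (quartiles 3.10 and 7.79). Where the promoter was open, the widest region over it had a median of 1194 bp with the pattern and 1324 bp without. By the number of C2H2 fingers matched, 82 of 114 Zfp genes with 3 to 9 (71.9%, interval 63.1 to 79.4%) and 126 of 182 with 10 or more (69.2%, interval 62.2 to 75.5%) were open. With 1 to 2 matched 14 of 24 were open (58.3%, interval 38.8 to 75.5%), and with no finger matched 9 of 20 (45.0%, interval 25.8 to 65.8%). The intervals of all these classes overlap. Lack of a match does not show lack of a box, as for Zfp57 and Zfp445, which are known as KRAB proteins and were not matched.

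Set against genes of like CpG frequency at the main start, Zfp genes had an open promoter more often over most of the range. The largest gap was from 1 to 3 CpG per 100 bp. A gene counted as open by a region at any annotated start, so the start with the region can differ from that whose CpG was counted. The comparison is therefore of genes by their main start, and not of open regions of like CpG frequency. In that range 48 of 73 Zfp promoters were open, 65.8% (interval 54.3 to 75.6%), and 38 of the 47 with a KRAB pattern, 80.9% (interval 67.5 to 89.6%). Of 4927 other coding genes in this range 21.0% were open (interval 19.9 to 22.2%). At higher CpG frequencies the gap was smaller, with 83.3% (interval 69.4 to 91.7%) against 64.8% from 4 to 5, 84.4% (interval 71.2 to 92.3%) against 69.7% from 5 to 6 and 84.8% (interval 71.8 to 92.4%) against 72.1% from 6 to 8. From 3 to 4 the shares were 64.9% (interval 48.8 to 78.2%) and 50.0%. Above 8 CpG per 100 bp the shares were 79.6% (39 of 49, interval 66.4 to 88.5%) and 76.3% (2840 of 3720), within counting error of each other. At or below 1 CpG per 100 bp at the main start 8 of 48 Zfp genes had an open promoter, 16.7% (interval 8.70 to 29.6%), and 5.66% of other genes. Of these Zfp genes, Zfp26, Zfp142, Zfp27, Zfp558 and Zfp473 had their region over another annotated start, more than 1 kb from the main start. Their regions are thus not open chromatin at the CpG-poor start that was counted. Zfp genes are related to each other by duplication, whereas the intervals treat them as independent.

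**Figure D3:**
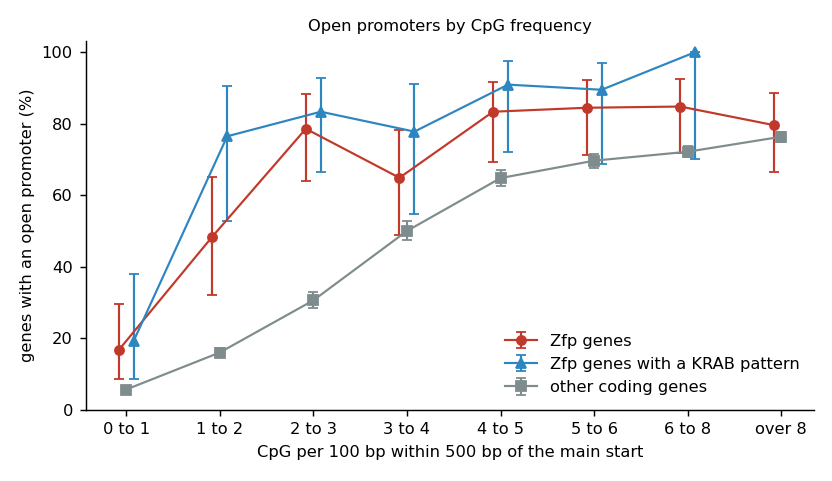
Share of genes with an open promoter (%) by CpG per 100 bp within 500 bp of the main start, for Zfp genes, Zfp genes with a KRAB pattern (bins of at least 9 genes) and other coding genes; bars are Wilson 95% intervals. A gene counts as open by a region at any annotated start, which need not be the main start. From 2 to 3 CpG per 100 bp 78.6% of Zfp genes and 30.6% of other genes have an open promoter, and above 8 the points meet.

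Clustered genes made up much of the family. Joining Zfp genes whose starts follow each other within 200 kb gave 24 clusters of at least 3 genes, with 147 genes on 11 chromosomes. Of these 147 genes 110 had an open promoter (74.8%, interval 67.2 to 81.2%), and of the 193 outside clusters 121 did (62.7%, interval 55.7 to 69.2%). Among clustered genes with a KRAB pattern 69 of 86 were open, 80.2% (interval 70.6 to 87.3%), and counting regions placed by the deposited distance 81 of 86 were, 94.2% (interval 87.1 to 97.5%). All genes were open in 5 clusters and none of the 24 lacked an open promoter altogether. Chromosome 7 held 87 of the 390 regions, 22.3%, beside 6.44% of the whole list, and it held 86 of the 340 coding Zfp genes. Chromosome 17 followed with 48 regions and 39 of these genes, and chromosome 13 with 40 regions and 31 of these genes.

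The largest cluster, at chr13:67162106-67914753, held 17 genes, of which 16 had a KRAB pattern. An open promoter was found at Zfp712, Zfp708, Zfp759, Zfp455, Zfp458, Zfp457, Zfp595, Zfp953, Zfp456, Zfp429, Zfp58, Zfp748, Zfp738, Zfp493 and Zfp273, 15 in all, with widths from 896 to 1781 bp and a median of 1226 bp. The other members, Zfp459 and Zfp87, had no region at an annotated start, but the list placed a region 166 bp upstream of a start of Zfp459 and one 56 bp from a start of Zfp87, the latter of which overlaps an annotated start of Zfp58. The median CpG frequency of the 17 promoters was 2.20 per 100 bp, below the median of 4.00 over all coding genes. Zfp708, in this cluster, is known for binding retroelements and had a region of 1187 bp.

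The second cluster, at chr7:30553571-30954746, held 14 genes with 12 open promoters, at Zfp84, Zfp30, Zfp790, Zfp940, Zfp420, Zfp27, Zfp74, Zfp568, Zfp82, Zfp566, Zfp260 and Zfp382, from 818 to 1345 bp wide. Zfp568, which represses a placental transcript of Igf2, had the widest of these. Zfp14 had a region only by the deposited distance, 85 bp from its start, and Zfp146 had none. The next cluster, at chr7:24866943-25372660, held 12 genes, of which Zfp112, Zfp235, Zfp114, Zfp111, Zfp93, Zfp61, Zfp94 and Zfp428 were open, with regions of 618 to 1432 bp. Zfp108 had a region of 922 bp only by the deposited distance, 24 bp from its assigned start. Zfp180, Zfp109 and Zfp575 had none within 1 kb by either measure. In 4 of the 24 clusters under 50% of the promoters were open by an annotated start. The cluster of 5 genes at chr7:28516408-28770815 had 1 open promoter, that of Zfp60, and 3 clusters of 3 genes had 1 each, at Zfp938, Zfp105 and Zfp7. When regions within 1 kb by the deposited distance also counted, the cluster of Zfp938 had 3 of 3 open. Those of Zfp105 and Zfp7 then had 2 of 3 each, and only that of Zfp60 stayed under 50%.

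**Figure D4:**
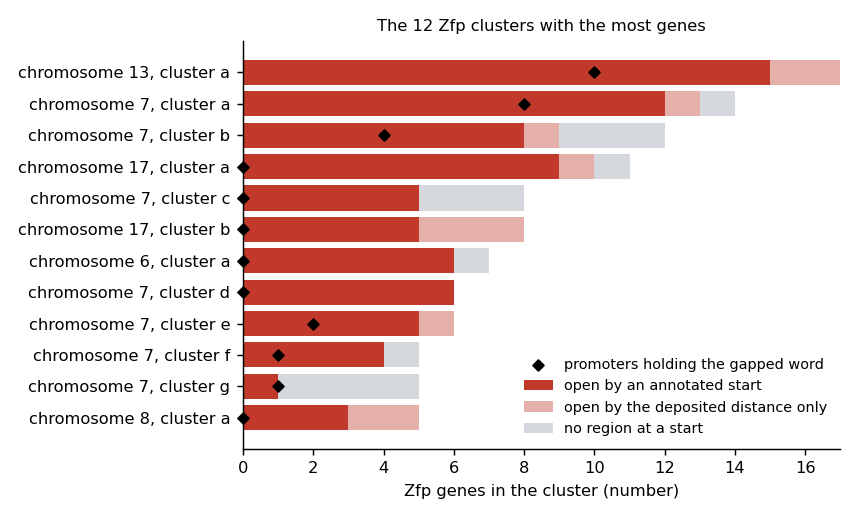
The 12 Zfp clusters with the most genes; bars count genes with a region over an annotated start, with a region only by the deposited distance, and with neither, and diamonds mark the number of promoters that hold ACTACA, 1 base, TTCCC. The word is found in 10 of 17 promoters of the largest cluster and 8 of 14 of the second, and in none of the 11 of the largest cluster on chromosome 17.

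The word marked above was found by comparing all words of 7 letters in open Zfp promoters with those in other open promoters, so its frequency in Zfp genes is a description of how it was chosen. Windows of 300 bases were searched, from 250 upstream to 50 downstream of the main start, on both strands. The word of 7 letters that stood out most was ACTACAT, in 34 of 231 open Zfp promoters and 264 of 9819 others, and the next ones in rank overlapped the gapped word with T in its gap. The gapped form, ACTACA and TTCCC with 1 base between, occurred in 31 of the 231 open Zfp promoters (13.4%, interval 9.62 to 18.4%) and in 5 of the 109 that were not open (4.59%). It occurred in 2.04% of other open promoters (200 of 9819), in 0.298% of other promoters that were not open, and in 1.22% of all 22225 coding promoters. Among open promoters of C2H2 genes under other names 10 of 158 held it, 6.33% (interval 3.47 to 11.3%), an interval that overlaps that of the open Zfp promoters. Promoters with the word were open in 31 of 36 Zfp genes (86.1%, interval 71.3 to 93.9%), and those without it in 200 of 304 (65.8%, interval 60.3 to 70.9%). The word was chosen in open Zfp promoters, so these 2 shares depend on that choice and are no independent comparison. Among other genes 200 of 236 promoters with the word were open (84.7%), beside 9619 of 21649 without it (44.4%). Letters of this kind are known from binding sites of Zfp143 (Staf), itself a Zfp gene with a region of 1916 bp over its start; a match of letters is not a site, and binding was not measured here.

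Within the family, the gapped word lay mostly in clustered genes. Of 110 open promoters in clusters 26 held it (23.6%, interval 16.7 to 32.4%), and of 121 outside clusters 5 did (4.13%, interval 1.78 to 9.31%). Of the 36 Zfp promoters with the word, open or not, 24 belonged to genes with a KRAB pattern, 17 were on chromosome 7 and 10 on chromosome 13. Of all 340 Zfp genes 143 had the pattern, 86 were on chromosome 7 and 31 on chromosome 13. The 5 without a region over an annotated start were those of Zfp146, Zfp180, Zfp334, Zfp605 and Zfp879. The word was on the strand opposite to the gene in 30 of 37 sites, 81.1% (interval 65.8 to 90.5%), and in 31.7% of 246 sites in other promoters (interval 26.2 to 37.8%). The sites lay within 150 bases upstream of the start in 36 of 37 cases (Zfp28 was the exception), and in 189 of 246 in other promoters (76.8%). The base in the gap of the word was T in 26 of 37 sites (70.3%), A in 8, C in 3 and G in none, and it was also most often T in other promoters (52.0%). Repeated 31-mers made up a median of 0.206% of the sequence around the starts that hold the word (quartiles 0 and 4.48%). Clustered genes share ancestry by duplication, and the sites are not independent.

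**Figure D5:**
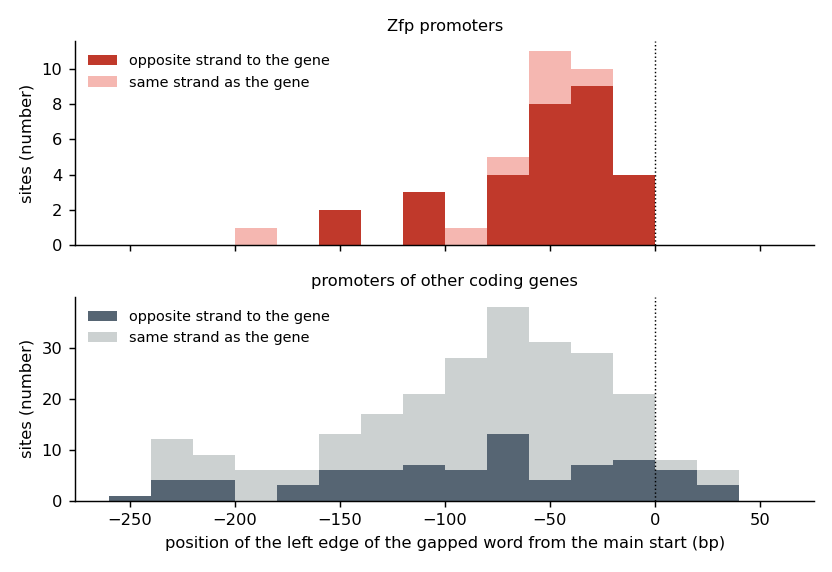
Number of sites of ACTACA, 1 base, TTCCC by the position of the left edge from the main start (bp, negative upstream, dotted line at the start), split by strand relative to the gene; top, 37 sites in 36 Zfp promoters, bottom, 246 sites in promoters of other coding genes. In Zfp promoters 30 of 37 sites are on the opposite strand and 36 of 37 lie within 150 bases upstream.

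The word was also near the middle of the regions. Of the 265 Zfp regions within 1 kb of the assigned start 42 held it somewhere, 15.8% (interval 11.9 to 20.7%), compared with 2.78% of 8818 for other genes. The 49 sites lay a median of 117 bp from the midpoint, whereas the median was 161 bp for 261 sites in promoter regions of other genes. Within 200 bp lay 38 of the 49 (77.6%, interval 64.1 to 87.0%) and 160 of the 261 (61.3%, interval 55.3 to 67.0%), and these intervals overlap. Beyond 10 kb 4 of 105 Zfp regions held the word (3.81%, interval 1.49 to 9.39%), beside 21 of 6635 for other genes (0.317%). The 4 were assigned to Zfp28, Zfp382, Zfp583 and Zfp72, and the regions of Zfp28 and Zfp583 had their midpoints 12 and 133 bp from the starts of Gm16532 and Gm17502.

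Other promoter motifs were counted in the same windows. The GC box (GGGCGG, both strands) was in 107 of 231 open Zfp promoters, 46.3% (interval 40.0 to 52.8%), compared with 65.2% of other open promoters and 43.7% of all coding promoters of the same length. The share was 46.2% (73 of 158, interval 38.6 to 54.0%) in open promoters of C2H2 genes under other names. In open promoters of Zfp genes with a KRAB pattern it was in 36.5% (interval 27.9 to 46.1%). The ETS motif (CCGGAAG) was in 55, or 23.8% (interval 18.8 to 29.7%), beside 17.2% of other open promoters and 10.9% of all. CCAAT was in 40.7%, beside 40.1% and 37.7%. The CRE (TGACGTCA) was in 9, or 3.90%, beside 3.45% and 2.34%, YY1 letters (AAGATGGCG) in 9, or 3.90%, beside 3.08% and 1.98%, and NRF1 letters (GCGCATGCG) in 12, or 5.19%, beside 3.37% and 2.09%. For the CRE, YY1 and NRF1 letters the intervals of the Zfp shares cover the values of other open promoters. No motif searched contains another, and TGACGTCA stands in the window of Zfp457 printed above.

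The gene lists below are short, and are read beside the 79.2% of coding Zfp genes that had a region and the 71.2% that had one within 1 kb (49.3% and 40.6% of all coding genes). All 6 retroelement and imprint regulators were in the list. Each of them (Zfp57, Zfp445, Zfp568, Zfp708, Zfp809 and Zfp932) had 1 region, within 1 kb of the start. Zfp57, which keeps methylation at imprinted loci, had 1282 bp, Zfp445, which acts with it, 920 bp, Zfp809, which silences proviruses at their primer binding site, 1088 bp, and Zfp932 1346 bp. The Zfp932 region stood apart in this list by repeated sequence, which made up 52.8% of its 31-mers.

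Of 5 pluripotency factors 3 had a region, beside 79.2% of coding Zfp genes. Zfp143 (1916 bp), Zfp217 (1672 bp) and Zfp281 (2198 bp) had a region over the start, and the last 2 of these each had a second. That of Zfp281 lay 35804 bp upstream of the same start, and that of Zfp217 78562 bp upstream of a different start of the gene. Zfp42 (Rex1), a marker of the naive state, and Zfp296 had none. Absence from this list does not show closed chromatin, since a region had to overlap between the replicates to be kept.

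Of 9 developmental regulators 6 had regions, 12 in all, but only Zfp335, Zfp521 and Zfp703 had one within 1 kb, beside 71.2% of coding Zfp genes. Zfp423, a cofactor of BMP signalling, had 2 regions, both intronic in the annotation. Their distances refer to different starts of the gene. The region at chr8:90462098-90463393 lay 20749 bp downstream of the main start. The one at chr8:90354968-90356055 lay 27173 bp upstream of another start. Zfp503 had its region 1529 bp downstream of the assigned start, over another annotated start of the gene. Zfp703 had 1 region of 1115 bp at its start and 1 of 1165 bp, 15661 bp upstream. Zfp488 and Zfp536 had none, nor did Zfp238, which present tables call Zbtb18. Of 7 factors of RNA and ribosomes 2 had a region, again beside 79.2% of coding Zfp genes. These were Zfp598 (1048 bp) and Zfp622 (1495 bp), each with a region at the start, while Zfp36, Zfp106, Zfp207, Zfp346 and Zfp593 had none.

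The genes with the most regions were Zfp619, Zfp462, Zfp608, Zfp369, Zfp825 and Zfp985. Zfp462 and Zfp608 had 5 each in sequence with almost no repeated 31-mers. The regions of Zfp462 lay 413822, 346072, 295694 and 2301 bp upstream and 57637 bp downstream of the assigned start, with widths from 1018 to 1851 bp, and the one at 2301 bp, at chr4:54957591-54959441, overlapped another annotated start of the gene. The 3 far regions, at chr4:54546487-54547504, chr4:54614200-54615291 and chr4:54664533-54665714, held 1.18, 1.65 and 0.761 CpG per 100 bp, and the last of them held the annotated start of Gm12480. Zfp608 had none within 1 kb, with 4 regions from 37619 to 161747 bp downstream and 1 at 559661 bp upstream, the most distant of all Zfp regions. The 5 most distant were completed by the 3 of Zfp462 and by 1 of Zfp407 at 199543 bp.

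Zfp619 had 7 regions and Zfp369, Zfp825 and Zfp985 had 4 each, and each of these genes had regions that were in part repeated. The regions of Zfp619 ran from 30222 bp upstream to 198906 bp downstream, and only 1 was within 1 kb of the start, while 1 lay at the start of Gm2058 and had 49.5% of its 31-mers repeated. All 4 regions of Zfp985 lay over 100 kb upstream of it, from 103967 to 146135 bp, and had 31.1 to 54.2% of their 31-mers repeated. In Zfp825 the share ran from 29.8 to 57.9% and in Zfp369 from 2.22 to 83.4%.

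Sequence that occurs more than once was common in the Zfp regions. Over 50% of the 31-mers were repeated in 48 of 390 regions, 12.3% (interval 9.41 to 15.9%), beside 1.87% of the whole list. This was not particular to Zfp names. Within 500 bp of the main start, open or not, over 50% were repeated in 72 of 269 C2H2 genes under other names. The count was 26 of 340 for coding Zfp genes of the annotation and 1621 of 22225 for all coding genes. Chromosome 2 held 15 of the 48, chromosome 4 held 9 and chromosome 13 held 8. The regions on chromosome 2 carried the symbols Zfp442, Zfp931, Zfp937, Zfp965, Zfp966, Zfp967, Zfp970, Zfp971, Zfp972 and Zfp973, and in 8 of them more than 99% of 31-mers were repeated. Zfp967 was named at 2 places, chr2:175702252-175703316 and chr2:175929802-175930571, each 46 bp downstream of its own assigned start. These are among the loci that hold the identical 120 bases printed above. On chromosome 4 the symbols were Zfp600, Zfp980, Zfp982, Zfp985 and Zfp991. No filter on mapping quality is stated by the study, so the reads behind identical copies cannot be told apart.

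Distant Zfp regions were of several kinds. Of 105 beyond 10 kb, 18 held an annotated start of a gene with another name (17.1%, interval 11.1 to 25.5%, beside 3.77% of 6635 distant regions of other genes), among them Gm13168 and Gm13166 in regions given to Zfp600 and Gm2026 in a region given to Zfp966. A further 13 held no such start but had over 50% of their 31-mers repeated. The remaining 74, assigned to 53 genes, had neither feature, and 12 of these genes had 2 or more of them, led by Zfp608 and Zfp619 with 5 each and Zfp462, Zfp985 and Zfp957 with 3 each. Not all of the 74 were away from starts. Those of Zfp13 and Zfp148 had their midpoints 98 and 59 bp from another annotated start of the same gene.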

How the data were processed

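ATAC-Seq was performed by the authors on wt tissue in 3 libraries. Reads were mapped to mm9 with bowtie2, properly paired primary alignments were kept, duplicates were removed with Picard 1.136, and peaks were called per library with MACS14. Peaks in ENCODE blacklist regions were removed, and bedtools 2.15 kept regions that the replicates shared by 1 bp or more. The tool that assigned genes is not given in the sources used here. The deposited list holds other values than measurements of signal: positions in bp, a gene symbol, an accession and a signed distance in bp to the start. Of its 17432 rows 17164 were distinct, and 394 rows gave the 390 Zfp regions. Depth per library is unknown, and unfiltered repeats can share reads. The lists of the other genotypes were not used here.

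Gene names were matched to the RefSeq gene table of GRCm38.p6, for 378 regions by accession and 12 by symbol, with no coordinates taken from it. Starts, coding sequences and bases came from GENCODE vM1 and NCBIM37, the same build as mm9. The main start was the one shared by most transcripts. The KRAB pattern was searched in the first 300 residues, and repeated 31-mers were counted on both strands of the whole genome with Python 3.11.15 and numba 0.67.0. Scripts were tested on simulated data. Members and lists were chosen with earlier results of these data known. Named genes were the 5 with the most regions (ties kept), the 5 widest and the 5 farthest regions, the 3 largest clusters, all genes of the lists, and those whose sequence is shown. Genes given as examples beyond these, and the gapped word, were chosen after their values were seen. Alternatives covered the width, symbol rule, chromosomes, distance limits, joining distance, promoter definition, KRAB pattern and repeated sequence.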

Additional observations from a re-analysis of the deposited data

How the results depend on the processing

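Of 37 alternative values for 8 results, 28 stayed within the interval or the limit of 1.5 times set for counts. With regions narrower than the median of the list left out, there were 229 Zfp regions for 192 genes. The share of coding Zfp genes was then 52.6%, beside 32.6% of all coding genes, and the share of Zfp regions within 1 kb was 75.1%. The share of coding Zfp genes with a region was 71.2% within 1 kb by the deposited distance, 67.9% with the annotation of the same build and 72.3% without regions that were over 50% repeated. When an assigned region within 1 kb by the deposited distance also counted, an open promoter was found in 87.1% of clustered Zfp genes and 85.3% of those with a KRAB pattern. The repeat and deposited-distance alternatives (apart from that of the coding share within 1 kb) were chosen after seeing the data. The cause of these shifts was not tested beyond their own construction, which leaves out or adds regions.

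No paired analysis was possible because the list is 1 consensus of the 3 libraries and no test was made. Leaving out 1 library was not possible for the same reason. The list gives no height, and counting error is the only error given.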
